A study of Xenopus laevis with 31 samples.

Results

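Of 15491 Xenopus laevis probe sets without array controls, 159 were much higher in vegetal than in animal explants of the gastrula while their level in the unfertilized egg and in the whole gastrula was nearly the same. A member had to be higher in vegetal endoderm than in animal caps by at least 1.75 in mean log2 intensity, with both vegetal arrays above all 3 cap arrays. It also had to differ by less than 1 on the log2 scale between the egg and the control embryo at stage 11. Of the 401 probe sets that passed the vegetal criteria, these 159 made up 39.7%. The other vegetal probe sets were lower in the egg (161) or higher in the egg (81) than the stage 11 embryo by 2-fold or more. The members were thus selected on their vegetal, cap, egg and stage 11 intensities, and those values are given below as a description. Intensity is the brightness of a probe set, and a log2 difference of 1 is a 2-fold change. All 159 members entered the fit, and none had to pass a filter on low values.

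The study asked which transcripts mark the gastrula endoderm and which of them need nodal signals, Mixer or Sox17. Its 31 arrays covered vegetal endoderm (2 arrays), equatorial mesendoderm (2 arrays) and animal cap (3 arrays) explants at stage 11. The caps were cut at stage 9 and cultured to stage 11. Whole stage 11 embryos had received Cerberus-Short RNA (3 arrays, 1 ng), a Mixer morpholino (Mixer-MO, 2 arrays, 40 ng) or a mixture of 3 morpholinos against Sox17 genes (Sox17-MO, 3 arrays, 20 ng of each). The title of Mixer-MO replicate 1 names 32 ng instead. The other groups were unfertilized eggs (3 arrays) and whole control embryos at stage 11 (9 arrays) and stage 18 (4 arrays). Injections were made vegetally at the 2-cell stage, and the labels name no injection for the control embryos. Each sample pooled about 20 sibling embryos of a single mating or about 50 explants, but no label ties samples to a mating, so p-values measure the spread among the samples at hand, which may be technical. The labels give no genotype. Morpholinos block translation or splicing, so the arrays do not read whether Mixer or Sox17 protein was lost.

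In Xenopus the vegetal part of the egg gives rise to the endoderm. RNAs are carried to the vegetal cortex while the oocyte grows, among them those for the T-box factor VegT and the TGF-beta ligand Vg1, and others travel with the germ plasm that marks future germ cells. After fertilization the embryo lives on these maternal stores until its own genome is switched on at the mid-blastula transition. VegT and nodal ligands then turn on endoderm genes, among them Mixer, a homeodomain factor, and the HMG-box Sox17 genes, and Cerberus-Short is the part of the secreted protein Cerberus that blocks nodal ligands. Stage 11 is a mid gastrula, and stage 18 a neurula in which the neural folds are closing. An equal level in the egg and at stage 11 can come from a maternal RNA that is kept or from one that is replaced by new transcription, and array levels do not tell these apart.

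The files give no gene names, and 0 identifiers found a match in the gene table at hand, so each member goes by its probe set identifier, and the tissues could not be checked against their defining markers. The identifiers belong to 155 sequence clusters. Only 4 clusters held more than 1 member, and each of these held 2 probe sets, which share a transcript or a closely related one. The members of a pair differed little in Xl.12284 (vegetal minus cap 2.03 and 1.95), in Xl.23466 (2.16 and 2.19) and in XlAffx.1 (3.12 and 2.88). The pair in Xl.2266 differed more at the neurula, where stage 18 minus stage 11 was 0.69 for Xl.2266.1.A1_a_at and -0.20 for Xl.2266.3.A1_at. Of the 159 identifiers, 151 ended in _at. The others ended in _x_at (5), _a_at (2) or _s_at (1), endings that mark probes which can match more than 1 transcript. The members were on the whole a little brighter than the array. Their stage 11 means ran from 7.91 to 2364 in intensity with a median of 96, beside a median of 72.3 over all probe sets. A few were dim, with 10 members under an intensity of 16 at stage 11 and 19 under 16 in the caps.

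Some arrays stood apart. The median over members of the log2 difference from the stage 11 mean was 1.29 on vegetal replicate 1 and 1.51 on replicate 2. It was 0.48 on Mixer-MO replicate 2 and 0.35 on control stage 11 replicate 7, which carry the same letter J in their titles, and from -0.25 to 0.20 on the other 8 stage 11 controls. The beta-actin 3′ probe set exceeded the 5′ one on vegetal replicate 2 (log2 difference 1.70), Mixer-MO replicate 2 (1.49), control stage 11 replicate 7 (0.90), Cerberus-Short replicate 2 (0.43) and control stage 18 replicate 2 (0.38), and lay below it on the other 26 arrays. The same difference for the GAPDH probe sets was 3.38, 3.60, 3.44 and 1.84 on stage 18 replicates 1 to 4. On the stage 11 controls it was 3.90 on replicate 7, 3.04 on replicate 9 and 1.65 to 2.47 on the rest. Control stage 11 replicate 9, of letter f, lay towards stage 18. Among the 9 controls it was the nearest to the stage 18 mean for 1831 of the 4082 probe sets called at stage 18, and for 17 of the 57 members called there. Most letters recur between groups, and the labels do not say what they mark. The letter L is carried by all 3 eggs and by no other array. Differences between the eggs and other groups, egg minus stage 11 among them, therefore cannot be told apart from a difference between letters. Arrays of the same letter in 2 compared groups deviated from their group means together, with correlations over probe sets from 0.0605 to 0.852 (median 0.657) in 12 pairs, while the fit used here has no term for the letter. Array medians ran from 65.5 to 77.4 in intensity.

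**Figure D1:**
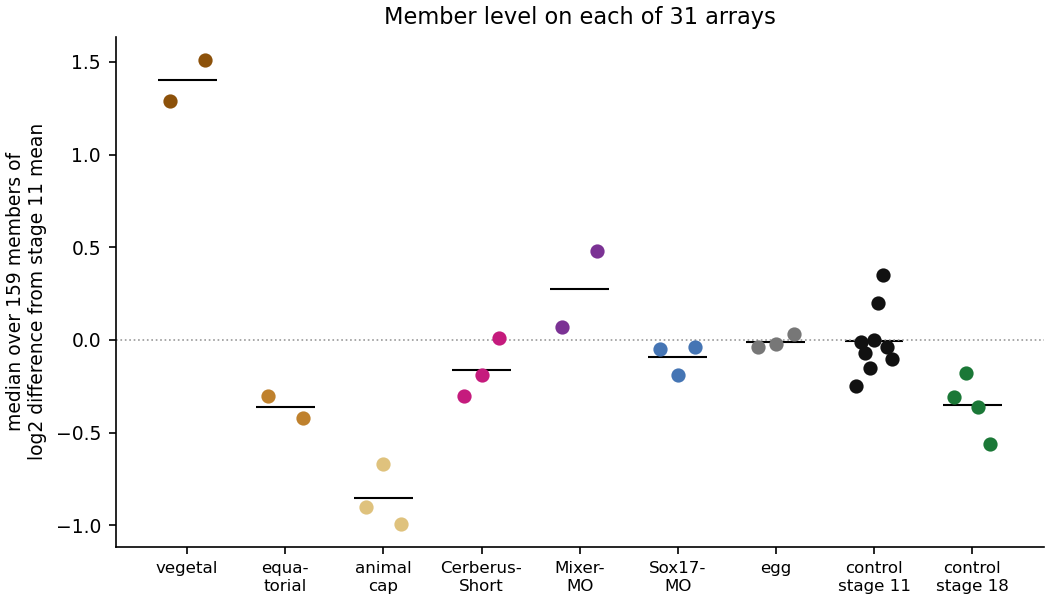
Each point is 1 of 31 arrays, and its height is the median over the 159 members of the log2 difference from the control stage 11 mean, with black lines at the group means and a dotted line at 0. Both vegetal arrays (1.29 and 1.51) lie above all others, the caps lie lowest (-0.99 to -0.67), the eggs lie at 0 (-0.04 to 0.03), and Mixer-MO replicate 2 (0.48) and control replicate 7 (0.35) lie above the other whole embryos.

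The vegetal bias of the members, which the rule required, had a wide range. Vegetal minus cap ran from 1.75 to 5.36 with a median of 2.10. It was at least 4-fold in 98 members, 8-fold in 19 and 16-fold in 6. Vegetal replicate 1 alone exceeded the cap mean by a median of 2.06, and replicate 2, the array with the high actin ratio, by 2.27. Without vegetal replicate 1 the same rule found 282 probe sets, which included 139 of the members, and without replicate 2 it found 158, with 111 of them. Within title letter B, which holds vegetal replicate 1 and 2 of the caps, all 159 were higher in the vegetal array, as the rule requires. The differences there were 0.81 to 5.57. The whole stage 11 embryo lay between the caps and the vegetal explants in 155 of 159 members. On a scale with the cap mean at 0% and the vegetal mean at 100%, its median place was 36.9%. In bulk samples, fewer cells that hold an RNA and less RNA per cell cannot be told apart.

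The strongest member, Xl.1775.1.S1_at, was also the brightest at stage 11. Its log2 level was 11.69 and 11.32 in the vegetal explants, against 5.39, 6.85 and 6.18 in the caps, a 41.1-fold difference of means. Its equatorial arrays (10.95 and 11.22) lay next to the vegetal ones, so of the 3 tissues only the caps were low. In the eggs it stood at 10.58, 10.35 and 10.71, inside the control stage 11 range of 10.35 to 11.73 (median 11.19).

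Xl.38.1.S1_at showed the opposite spread within the embryo. It reached 10.45 and 10.01 in the vegetal explants, against 5.26, 5.36 and 5.05 in the caps, a 32.1-fold difference. The equatorial arrays read 5.29 and 5.38, level with the caps, so of the 3 tissues only the vegetal explants were high. In whole embryos it was at 8.38, 7.60 and 8.13 in the eggs, at 7.66 to 8.85 (median 8.43) at stage 11, and at 7.50, 9.39, 8.11 and 6.99 at stage 18.

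Xl.16410.1.A1_at read 10.95 and 10.88 in the vegetal explants, 7.31 and 7.17 in the equatorial ones, and 6.11, 6.02 and 5.96 in the caps. Xl.7094.1.S1_a_at read 9.20 and 9.30 in the vegetal explants, 6.39 and 6.14 in the equatorial ones, and 4.83, 4.95 and 4.91 in the caps. In both, the 3 tissues formed steps that did not overlap. Xl.3873.1.S1_at read 10.09 and 10.49 in the vegetal explants, 7.07 and 7.06 in the equatorial ones, and 6.59, 6.45 and 5.32 in the caps. The other 3 of the 8 strongest members were Xl.4935.1.A1_at, Xl.10408.1.A1_at and Xl.15398.1.A1_at, which were 17.9-fold, 15.1-fold and 13.4-fold higher in the vegetal explants than in the caps.

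**Figure D2:**
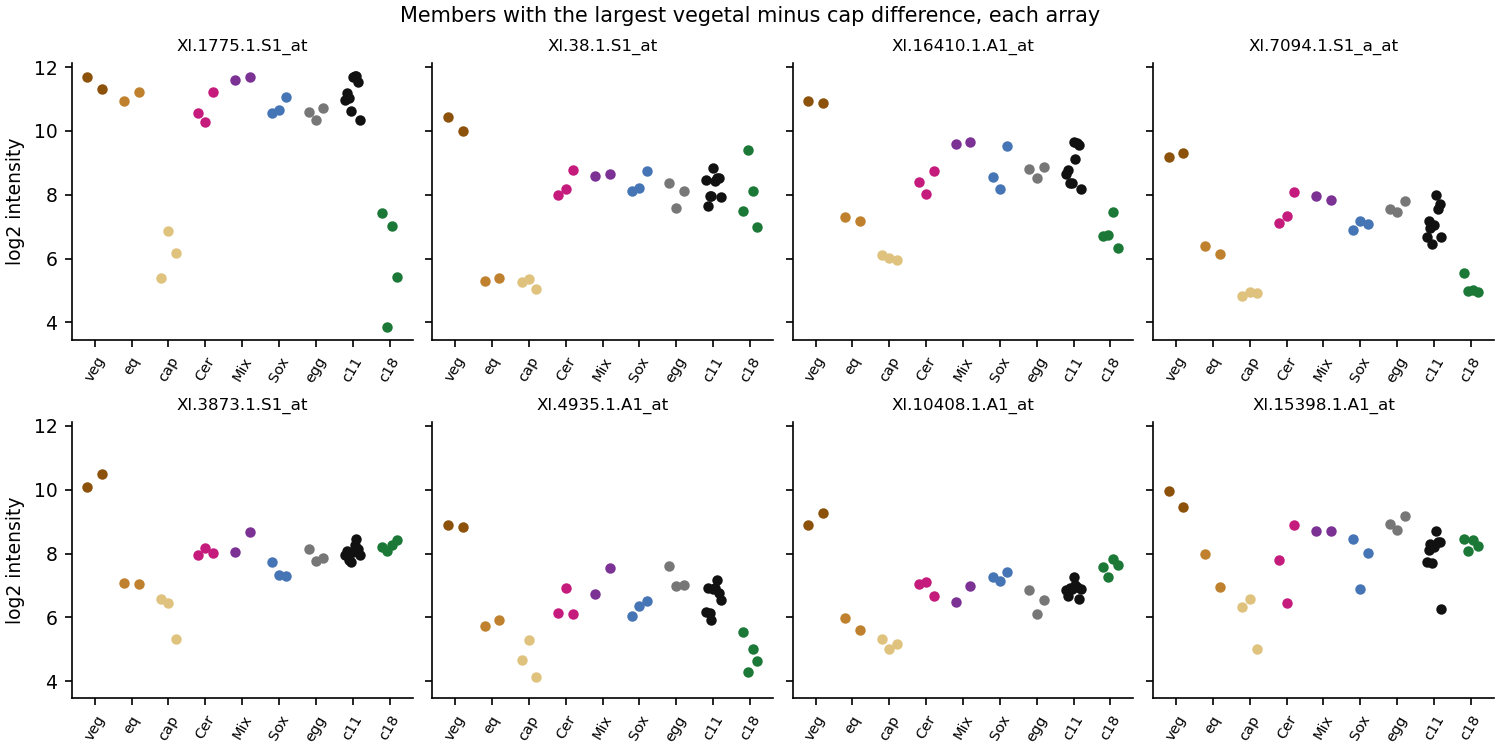
The 8 panels give the log2 intensity on every array for the members with the largest vegetal minus cap difference (veg, vegetal endoderm; eq, equatorial; cap, animal cap; Cer, Cerberus-Short; Mix, Mixer-MO; Sox, Sox17-MO; c11 and c18, control embryos at stages 11 and 18). Equatorial arrays lie beside the vegetal ones in Xl.1775.1.S1_at and beside the caps in Xl.38.1.S1_at, and at stage 18 Xl.7094.1.S1_a_at lies at 4.94 to 5.56 while Xl.10408.1.A1_at lies at 7.26 to 7.82.

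In the equatorial explants, which the rule did not use, most members were far closer to the caps than to the vegetal endoderm. Their place on the same scale had a median of 22.7%, and 144 of 159 lay in the lower part, nearer to the cap mean. Both equatorial arrays lay below both vegetal arrays in 152 members, and both lay above all caps in 76. Equatorial minus cap had a median of 0.50 and vegetal minus equatorial one of 1.69, beside -0.02 and 0.14 over all probe sets. These differences share an arm with the rule and carry no test. The counts of 152 and 76 are given without a share over all probe sets, so they are a description only.

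A few members were spread over the vegetal and equatorial regions alike. Xl.7556.1.S1_at read 9.22 and 8.76 in the equatorial explants, 9.30 and 7.99 in the vegetal ones, and 5.99, 6.81 and 6.55 in the caps. Xl.13309.1.S1_at read 6.75 and 7.45 in the equatorial explants, 6.99 and 7.07 in the vegetal ones, and 3.63, 3.61 and 4.38 in the caps. These were the only 2 members whose equatorial mean exceeded the vegetal mean. Xl.1073.1.S1_at (87.6%) and Xl.1085.1.S1_at (68.3%) followed Xl.1775.1.S1_at (92.2%) on the scale. At the other end, 17 members had an equatorial mean below the cap mean, led by Xl.450.1.S1_at, with 3.70 and 3.78 in the equatorial explants, against 4.09, 4.07 and 4.34 in the caps. Xl.16639.1.A1_at read 6.88 and 6.27 in the equatorial explants, against 7.29, 6.86 and 6.81 in the caps, and 8.97 on both vegetal arrays.

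Against whole stage 11 embryos, 3 members were lower in the equatorial explants and 0 were higher (limma, Benjamini-Hochberg adjusted p under 0.05 and 2-fold). Over all probe sets tested, 0.155% were called lower and 0.0259% higher. The 3 were Xl.38.1.S1_at, with a difference of -2.92 ± 0.37 (SE, adjusted p = 7.72e-05), Xl.16410.1.A1_at, with -1.68 ± 0.35 (SE, adjusted p = 0.0333), and Xl.10408.1.A1_at, with -1.10 ± 0.20 (SE, adjusted p = 0.00689). In each, both equatorial arrays lay below all 9 controls. For Xl.10408.1.A1_at the equatorial arrays read 5.99 and 5.60, against 6.57 to 7.27 (median 6.90) in the controls. At an unadjusted p under 0.05 there were 34 members (21.4%), all lower, beside 2.68% of all probe sets tested. The median over members was -0.34, beside -0.01 over all probe sets, and 130 of 159 were below 0. Within letter H, which holds 1 array of each kind, 140 of 159 were lower in the equatorial array, with a median of -0.43. The members were chosen as high in vegetal tissue, which whole embryos include. A lower level in another explant was thus favoured by the choice, and the stage 11 arrays also entered the rule through the egg window. Without equatorial replicate 2, 1 member was called. The call of Xl.16410.1.A1_at was lost without either equatorial array and without control replicate 5, 6 or 8. It was also lost without the J arrays (adjusted p = 0.064). In these fits its difference stayed at -1.75 to -1.59. With the replicate number as a block it was -1.29 (adjusted p = 0.0729), and with only the compared groups -1.68 (adjusted p = 0.301), neither called. Xl.10408.1.A1_at was not called with the replicate number as a block (-1, adjusted p = 0.143). Nor was it called with 16 added to every intensity (-0.92). Without equatorial replicate 2 its difference was -0.9. Equatorial replicate 2 is the only array of letter K, so with the letter as a fixed block the comparison rested on 1 equatorial array. The differences were then -3.07 for Xl.38.1.S1_at, -1.65 for Xl.16410.1.A1_at and -0.91 for Xl.10408.1.A1_at.

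The egg and stage 11 levels were held together by the rule. Egg minus stage 11 ran from -0.99 to 0.98 with a median of -0.01, and lay within 0.5 in 81 members. It was above 0 in 78 members and below 0 in 81. The members at the edges were Xl.13686.1.A1_at (-0.99) and Xl.14404.1.A1_at (-0.98) at the lower bound, and Xl.15398.1.A1_at (0.98) and Xl.10312.1.A1_at (0.97) at the upper one. Xl.14404.1.A1_at (1.75) and Xl.17226.1.A1_at (1.76) lay just inside the vegetal minimum, and Xl.3201.1.A1_at (1.7488) and Xl.7747.1.A1_a_at (1.7434) just outside it. Outside the egg window the nearest were Xl.24158.1.A1_at (-1.05) and Xl.15089.3.A1_x_at (-1.07) below and Xl.7015.1.A1_at (1.01) and Xl.5216.1.S1_at (1.02) above. A steady mean covered, in places, a wide scatter between samples. Xl.13686.1.A1_at read 3.05, 3.15 and 3.08 in the eggs, while its controls at stage 11 ran from 2.80 to 5.23 (median 4.08).

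Between gastrula and neurula the members parted. At stage 18, 42 of 159 (26.4%) fell and 15 (9.43%) rose against stage 11 (limma, adjusted p under 0.05 and 2-fold). Over all probe sets tested, 14.2% fell and 12.2% rose. The median over members was -0.32, beside 0.04 over all probe sets. The other 102 were not called, and for 49 of them the 95% interval of the difference lay within 2-fold in both directions. The comparison shares the stage 11 arrays with the egg window of the rule, and its stage 18 arrays took no part in the choice. Stage 18 replicates 1 to 3 had higher GAPDH 3′ minus 5′ differences than most controls, and the part of RNA quality was not tested. Within letter G, with 1 array of each stage, 100 of 159 members were lower at stage 18 (median -0.33), and within letter f, with 2 arrays at stage 18 and control replicate 9, 86 were lower (median -0.11). Without control replicate 9 there were 45 falls and 17 rises, which included the same 57 members, and without the J arrays 42 falls and 15 rises.

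**Figure D3:**
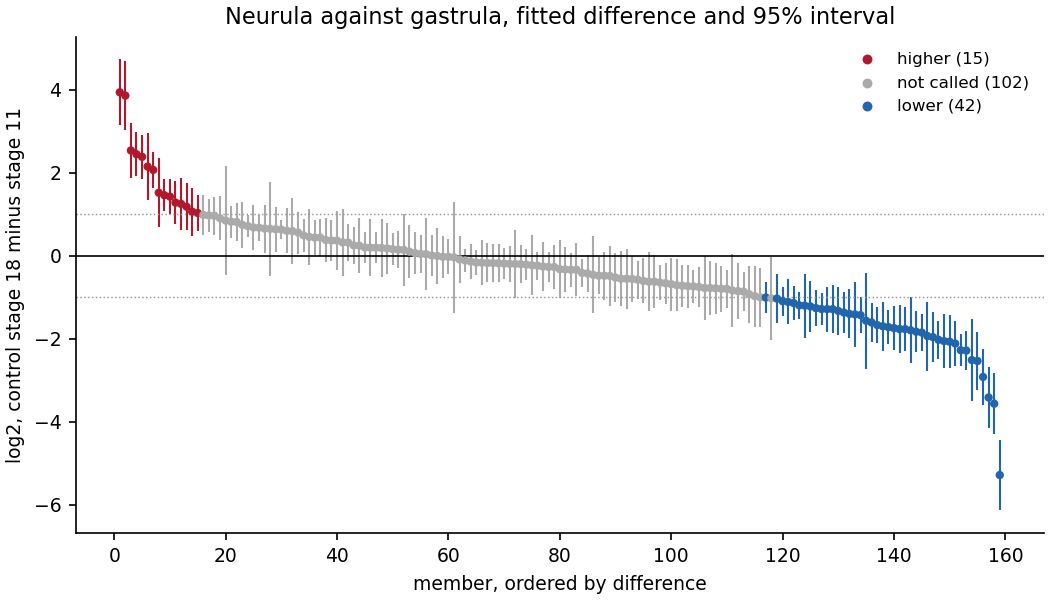
Points give the fitted log2 difference between control embryos at stage 18 and stage 11 for each of the 159 members, in order, with vertical lines for the 95% intervals and dotted lines at 2-fold. The 15 members that rose reach 3.94, the 42 that fell reach -5.28, and the 102 between were not called.

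The members that fell had a higher median at stage 11 than the others, though the stage 11 level also enters the difference that sorted them. Their median log2 level was 5.41 at stage 18, against 7.16 at stage 11, where the members that were not called stood at 6.39. The median difference was -1.71, and 12 fell by 4-fold or more. In 37 of the 42, all stage 18 arrays lay below all 3 eggs, and in 35 below all 9 stage 11 controls. These 42 were called from the same stage 11 and stage 18 arrays, and the rule held the eggs near stage 11. Both counts thus follow in large part from the call, and no share over all probe sets is given. Xl.1775.1.S1_at fell the most. It stood at 7.43, 3.85, 7.02 and 5.41 at stage 18, far below the stage 11 range of 10.35 to 11.73, a difference of -5.28 ± 0.41 (SE, adjusted p = 6.71e-11), or 38.9-fold. Its neurula arrays spread around the level of the gastrula animal caps (5.39 to 6.85).

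Xl.24723.1.A1_at, the next, read 7.79, 4.99, 7.60 and 7.01 at stage 18, against 9.33 to 10.92 (median 10.47) at stage 11, a difference of -3.56 ± 0.36 (SE, adjusted p = 5.67e-09). Xl.5846.15.S1_at read 7.31, 4.40, 7.40 and 5.54 at stage 18, against 8.89 to 10.22 (median 9.66) at stage 11, a difference of -3.41 ± 0.35 (SE, adjusted p = 1.14e-08). In these 3, stage 18 replicate 2 was the lowest array. Without it the differences were -4.59 for Xl.1775.1.S1_at, -2.94 for Xl.24723.1.A1_at and -2.82 for Xl.5846.15.S1_at, all still called. Xl.1019.1.S1_at (-2.92 ± 0.33 SE, adjusted p = 4.98e-08) and Xl.2061.1.A1_at (-2.53 ± 0.34 SE, adjusted p = 7.36e-07) showed no such gap between stage 18 arrays. Xl.1019.1.S1_at averaged 5.40 ± 0.58 at stage 18 (SD, n = 4), against 8.32 ± 0.65 at stage 11 (SD, n = 9). Xl.2061.1.A1_at averaged 5.42 ± 0.27 at stage 18 and 7.95 ± 0.56 at stage 11. Xl.24723.1.A1_at was far from absent in the gastrula caps (8.97 to 9.40), where it was brighter than in any stage 18 embryo.

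The members that rose had a lower median at stage 11 than those that were not called (6.39), a level that again enters the sorting. Their median log2 level was 7.67 at stage 18, against 5.55 at stage 11, the median rise was 1.52, and 7 rose by 4-fold or more. Their egg minus stage 11 difference, which shares the stage 11 arrays with the sorting, had a median of -0.56, beside 0.07 for the members that fell. Xl.16116.1.A1_at and Xl.10684.1.A1_at rose the most. Xl.16116.1.A1_at read 7.95, 7.41, 7.84 and 7.47 at stage 18, against 2.94 to 6.32 (median 3.26) at stage 11, a rise of 3.94 ± 0.39 (SE, adjusted p = 4.19e-09). Its eggs stood at 2.97, 2.65 and 2.83, among the low signals of the array, and no measure of background was used here. With a pseudocount of 16 its rise was 2.83, still called, so its fold depends on how low signals are treated. Xl.10684.1.A1_at read 8.24, 8.61, 8.17 and 8.58 at stage 18, against 3.90 to 6.32 (median 4.30) at stage 11, a rise of 3.86 ± 0.40 (SE, adjusted p = 1.3e-08).

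Control replicate 9 was the high stage 11 array in these 2 members, and again in Xl.4847.1.A1_at, where it read 7.45 and the next control 5.81. Without it the rises were 4.27, 4.09 and, for Xl.4847.1.A1_at, 2.78 in place of 2.54. Xl.2410.1.A1_at read 8.88, 10.03, 8.99 and 9.17 at stage 18, against 6.25 to 7.38 (median 6.74) at stage 11, a rise of 2.45 ± 0.26 (SE, adjusted p = 1.63e-08). Xl.1572.1.A1_at read 9.16, 10.21, 9.52 and 9.74 at stage 18, against 6.64 to 7.93 (median 7.29) at stage 11, a rise of 2.39 ± 0.26 (SE, adjusted p = 2.72e-08). These 2 were already clear in the eggs, at 6.77 to 7.13 and 7.67 to 8.03.

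**Figure D4:**
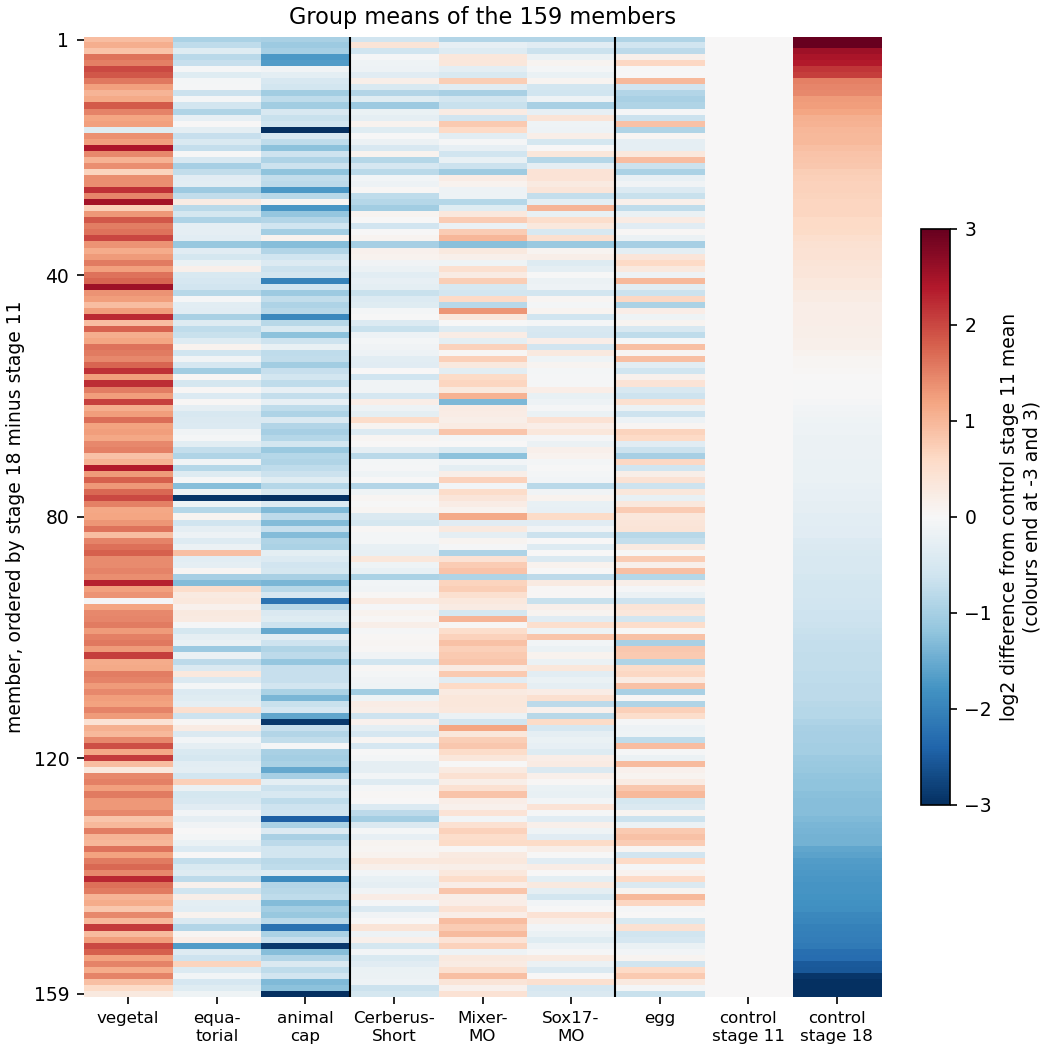
Rows are the 159 members in the order of their stage 18 minus stage 11 difference, columns are the 9 groups, and colours give the log2 difference of the group mean from the control stage 11 mean (white by construction in its own column). The vegetal column is raised in nearly all rows, the equatorial and cap columns are mostly lowered, the egg column stays within 1 of stage 11 as the rule requires, and the stage 18 column parts into rises (15 called) and falls (42 called).

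In some members the means of egg, gastrula and neurula lay close together. Over the means of egg, stage 11 and stage 18 the range within a member had a median of 1.02, and the 5 smallest ranges were those of Xl.10489.1.A1_at, Xl.6144.1.A1_at, Xl.74.1.S1_at, Xl.5662.1.A1_at and Xl.10913.1.A1_at. Xl.6144.1.A1_at, a bright one, read 8.88, 8.92 and 8.64 in the eggs, 7.92 to 9.27 (median 8.74) at stage 11, and 8.66, 8.48, 9.11 and 8.57 at stage 18. In the same member the vegetal explants read 9.60 and 10.29, against 8.15, 8.57 and 7.72 in the caps. Xl.3873.1.S1_at, one of the 8 strongest vegetal members, stayed within a narrow range, with 8.13, 7.78 and 7.85 in the eggs, 7.73 to 8.45 (median 8.05) at stage 11, and 8.20, 8.08, 8.28 and 8.43 at stage 18. Xl.74.1.S1_at was steady at a low signal of 2.66 to 3.37 in all eggs and whole controls, so its range says little. Xl.10913.1.A1_at was low too, at 3.66 to 4.20 (median 3.81) at stage 11. In Xl.10489.1.A1_at and Xl.5662.1.A1_at the close means covered a wide scatter. Eggs read 6.36, 6.67 and 5.17 for Xl.10489.1.A1_at, and stage 18 arrays read 6.37, 5.22, 7.14 and 7.26 for Xl.5662.1.A1_at.

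Against the controls, the 3 injections gave 1 call in all among the members. Cerberus-Short, which blocks nodal signals, gave 0 calls among the 159 members (limma, adjusted p under 0.05), beside 0.304% of all probe sets tested. The median over members was -0.12, beside 0.01 over all probe sets, and the smallest adjusted p was 0.0998. An unadjusted p under 0.05 was found for 21 members (13.2%), 20 of them lower, beside 2.09% of all probe sets. For 106 members (66.7%) the 95% interval lay within 2-fold in both directions, beside 84.2% of all probe sets. The array medians were -0.30, -0.19 and 0.01 relative to the stage 11 mean, with the J control among the 9 controls. Against the control of the same letter they were -0.07 within D, 0.01 within f and -0.17 within H. Where title letters entered as a random block, 4 members were called lower, namely Xl.14404.1.A1_at (-0.82), Xl.3789.1.S1_at (-1.20), Xl.683.1.S1_at (-0.90) and Xl.7910.1.A1_at (-0.88). Without control replicate 6 there was 1 call, and without the J arrays 0.

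Mixer-MO likewise gave 0 calls, beside 0.0324% of all probe sets tested. Its median over members was 0.25, beside -0.01 over all probe sets, and the smallest adjusted p was 0.0508. An unadjusted p under 0.05 was found for 35 members (22%), 28 of them higher, beside 8.09% of all probe sets. This shift came with replicate 2, the J array with the high actin ratio, where the median was 0.48, while on replicate 1 it was 0.07. Against control replicate 7, the other J array, the median on Mixer-MO replicate 2 was 0.12. The part of RNA quality in the shift was not tested. With 2 arrays the intervals were wide, and for 55 members (34.6%) they lay within 2-fold in both directions, beside 62.6% of all probe sets. Without control replicate 6 or 7, 1 member was called in each case, and without both J arrays 0 were.

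Sox17-MO gave 1 call, beside 0.952% of all probe sets tested. Xl.7910.1.A1_at was lower, at 6.38, 5.95 and 6.43 in Sox17-MO embryos, against 6.74 to 7.53 (median 7.11) in the controls, a difference of -0.85 ± 0.21 (SE, adjusted p = 0.0411). All 3 Sox17-MO arrays lay below all 9 controls. The call was lost without any 1 of the 3 Sox17-MO arrays, and without control replicate 1, 4, 5, 7, 8 or 9, where the difference was -0.93 to -0.70. It was also lost without both J arrays (-0.81, adjusted p = 0.0761) and with the letter as a fixed block (-0.78, adjusted p = 0.156). In all, 7 of 21 alternatives kept it, among them the letter as a random block (-0.81, adjusted p = 0.0202), and 14 did not. Cerberus-Short embryos, set against the same controls, read 6.58, 5.71 and 6.48 for this member, also below all controls, with a difference of -0.85 that was not called (adjusted p = 0.0998). Its eggs (7.87 to 8.18) lay above all stage 11 controls, and its stage 18 arrays read 7.40 to 8.19. Over members the Sox17-MO median was -0.08, beside 0.04 over all probe sets. An unadjusted p under 0.05 was found for 20 members (12.6%), beside 8.2% of all probe sets, and for 105 (66%) the 95% interval lay within 2-fold in both directions, beside 76.3%. Within letters C, f and G the medians were 0.00, -0.02 and -0.05.

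**Figure D5:**
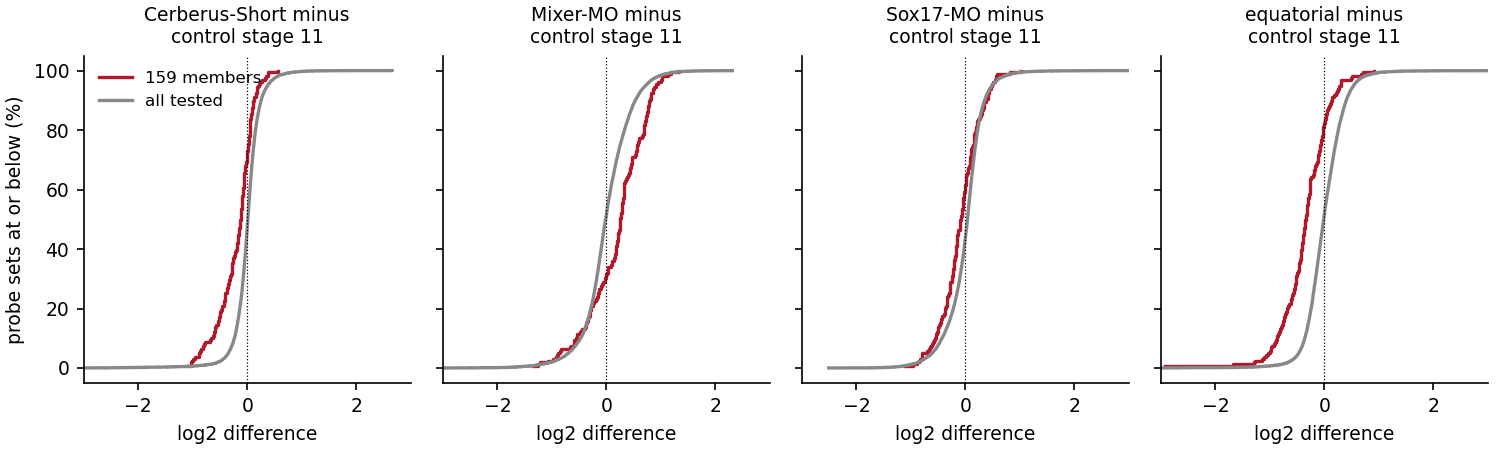
Lines give the percentage of probe sets at or below each log2 difference from control stage 11, for the 159 members (red) and all probe sets tested (grey), in Cerberus-Short, Mixer-MO and Sox17-MO embryos and in equatorial explants. The members' medians are -0.12, 0.25, -0.08 and -0.34, and by median the members lie furthest from all probe sets in the equatorial panel. The choice of members as vegetal favours a lower level there.

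Set directly against each other, the injected groups gave calls in 4 members. Of the calls that involve Mixer-MO, those of Xl.1037.1.S1_at and Xl.1038.1.S1_at were lost when letters entered as a random block. The call of Xl.14404.1.A1_at was kept there. Xl.1037.1.S1_at read 4.94, 4.97 and 4.74 in Cerberus-Short embryos, against 6.03 and 6.83 in Mixer-MO embryos, a difference of -1.55 ± 0.31 (SE, limma adjusted p = 0.0252). Its Sox17-MO arrays (5.37, 5.16 and 4.99) lay below the Mixer-MO ones too, and Mixer-MO minus Sox17-MO was 1.26 ± 0.31 (SE, adjusted p = 0.0496). Xl.1038.1.S1_at read 6.00, 5.74 and 5.25 in Cerberus-Short embryos, against 6.96 and 7.20 in Mixer-MO embryos, a difference of -1.42 ± 0.29 (SE, adjusted p = 0.0344). Both members were thus high in Mixer-MO embryos beside controls of 5.05 to 5.93 and 5.83 to 6.55, although Mixer-MO against control was not called for either. With the letter as a random block none of these 3 calls was kept. For Xl.1037.1.S1_at the differences were then -1.44 (adjusted p = 0.0541) and 1.11 (adjusted p = 0.127), and for Xl.1038.1.S1_at the difference was -1.43 (adjusted p = 0.069). With the letter as a fixed block they were -1.32, 0.95 and -1.46. In that fit Mixer-MO replicate 1, whose title has no letter, had a block of its own. Mixer-MO then rested on 1 array, so that fit cannot show whether the calls depend on the letter. With the replicate number as a block all 3 calls were lost too, at -1.46 (adjusted p = 0.0564) and 1.17 (adjusted p = 0.058) for Xl.1037.1.S1_at and -1.31 (adjusted p = 0.0578) for Xl.1038.1.S1_at.

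Xl.3789.1.S1_at read 5.25, 4.95 and 4.60 in Cerberus-Short embryos, against 6.48, 7.72 and 6.75 in Sox17-MO embryos, a difference of -2.05 ± 0.36 (SE, adjusted p = 0.00695). The control median of 5.73 lay between, but the controls ran from 5.53 to 7.05 and overlapped the Sox17-MO arrays. In the fit without a letter term neither group alone passed the limma test against the controls. The differences were -1.03 with Cerberus-Short (adjusted p = 0.314) and 1.02 with Sox17-MO (adjusted p = 0.119). With the letter as a random block both were called, at -1.20 (adjusted p = 0.0284) and 1.03 (adjusted p = 0.0392). Same-numbered arrays of these 2 injected groups deviated together in 3 of 3 pairs (correlations 0.27 to 0.671). With the replicate number as a block Xl.3789.1.S1_at stayed called (-2.05, adjusted p = 0.014), and 1 further member was, Xl.12211.1.A1_at (-1.26, adjusted p = 0.0466, against 0.176 without the block), which is named after its values were seen. Xl.14404.1.A1_at read 4.71 and 4.57 in Mixer-MO embryos, against 6.29, 6.13 and 5.50 in Sox17-MO embryos, a difference of -1.33 ± 0.28 (SE, adjusted p = 0.0250). Against the controls (5.36 to 6.45) the Mixer-MO difference was -1.22, with a limma adjusted p of 0.0508, and was not called. With the letter as a random block it was called (-1.22, adjusted p = 0.0119). The replicate number as a block gave a call too (-1.26, adjusted p = 0.0455). Mixer-MO minus Sox17-MO for this member stayed called with the letter as a random block (-1.21, adjusted p = 0.0271). With it as a fixed block, where Mixer-MO rested on 1 array, the difference was -1.15.

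Counted over members, Cerberus-Short against Mixer-MO had 2 calls, Cerberus-Short against Sox17-MO 1 and Mixer-MO against Sox17-MO 2, beside 0.207%, 0.473% and 0.764% of all probe sets tested. These counts are from the fit without a block. With the replicate number as a block, Cerberus-Short against Sox17-MO had 2 calls, beside 83 among all 15443 probe sets tested. Without the J arrays, where Mixer-MO keeps 1 array that is taken to vary like the other groups, the comparisons with Mixer-MO had 0 calls. The differences there were -1.15 and 0.86 for Xl.1037.1.S1_at, -1.29 for Xl.1038.1.S1_at and -1.26 for Xl.14404.1.A1_at. With the J arrays they were -1.55, 1.26, -1.42 and -1.33. Every difference kept its direction and was smaller in size without the J arrays. The part of the letter and that of fewer arrays cannot be told apart here. Leaving out either Mixer-MO array ended every one of the 4 named calls that involve Mixer-MO. Cerberus-Short against Mixer-MO had 0 calls without Cerberus-Short replicate 2, 1 without replicate 1 and 3 without replicate 3. For Mixer-MO against Sox17-MO, leaving out a Sox17-MO array gave 3 calls (replicate 1), 0 (replicate 2) or 1 (replicate 3). The call of Xl.3789.1.S1_at was lost without Sox17-MO replicate 2 (-1.68) and kept without each of the other 5 arrays.

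Beside the other vegetal probe sets the counts ran as follows, as a description without a test. Of 156 tested vegetal probe sets that were lower in the egg, 46 (29.5%) were called lower with Cerberus-Short, 7 lower and 1 higher with Sox17-MO, and 1 each way with Mixer-MO, against the 0, 1 and 0 calls of the steady members. Of the 81 that were higher in the egg, 0 were called by limma in any of the 3. An unadjusted p under 0.05 was found for 1 (1.23%) with Cerberus-Short, 23 (28.4%) with Mixer-MO and 7 (8.64%) with Sox17-MO. Over all probe sets the shares were 2.09%, 8.09% and 8.2%. All 23 were higher with Mixer-MO, a group that includes the J array with the high actin ratio. The part of that array in these 23 was not tested. At stage 18, 63 of the 156 fell and 32 rose, and 42 of the 81 fell and 3 rose. These classes share the vegetal, cap, egg and stage 11 arrays, and the egg values that part them were chosen for that.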

How the data were processed

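The authors deposited linear intensities, made by RMA in GeneSpring 7.1, per the file headers. Intensities of 1000 or more were written with a digit mark that reads as a decimal point. They were restored, which the written form settled for 90.5% of 483941 values. The rest, including values of 23 members, took the form nearest to a settled value of the same probe set. When 5101 settled values were hidden, 5095 were recovered. After 120 controls and 48 undecided probe sets were left out, log2 intensities of 15443 went into limma 3.58.1 (R 4.3.3), with 1 mean per group over 31 arrays and 22 residual degrees of freedom. The model was tried on simulated data with independent noise on each array, which lack the shared deviations of same-letter arrays. Groups came from the condition labels. Calls used Benjamini-Hochberg adjusted p under 0.05, and 2-fold for stage and tissue.

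The members and the rule for named probe sets (the 8 with the largest vegetal bias, up to 5 calls a direction in each comparison, and the extremes of level, steadiness, equatorial place and the rule's bounds) were chosen with earlier results of these data known. The named calls were those with the largest changes among called members whose compared groups did not overlap. Replicate numbers, per the labels, were taken to pair samples where 3 or more pairs all had correlated deviations over 0.1. This held for Cerberus-Short against Sox17-MO (3 pairs, 0.27 to 0.671) and for no other comparison. The main fit had no block, so this pairing entered only as an alternative, with the replicate number as a block. The pair with 0.671 also shares the title letter f. The 2 pairs of Cerberus-Short and Mixer-MO (0.309 and 0.347) and of Mixer-MO and Sox17-MO (0.157 and 0.139) were also positive. Targeted genes could not be looked up, since no probe set has a gene name here. The number of arrays limits the precision. Alternatives covered blocks, normalization, filters, the rule's thresholds and left-out arrays. Leaving out the J arrays was chosen after seeing the data.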

Additional observations from a re-analysis of the deposited data

Results flagged for a closer look

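Groups of 4 to 9 arrays were tested for named members and for the members' array medians. Chance gives about 1 in 20 in independent groups. Here the same arrays recur and members were named for extremes, so that rate does not apply as such. In 9 of the 86 groups the highest or lowest array lay apart from the rest. Control stage 11 replicate 9 was that array in 5 of them. It was high in Xl.16116.1.A1_at (6.32), Xl.10684.1.A1_at (6.32) and Xl.4847.1.A1_at (7.45), which rose at stage 18. It was low in Xl.24723.1.A1_at (9.33), which fell at stage 18, and in Xl.15398.1.A1_at (6.26), which was not called. Control replicate 3 was high in Xl.74.1.S1_at (3.37). At stage 18, replicate 1 was high in Xl.7094.1.S1_a_at (5.56) and Xl.1085.1.S1_at (8.55), and replicate 2 in Xl.10489.1.A1_at (7.11).

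In the fit without a letter term, injected groups differed directly in Xl.1037.1.S1_at, by -1.55 between Cerberus-Short and Mixer-MO and by 1.26 between Mixer-MO and Sox17-MO. They also differed in Xl.1038.1.S1_at, by -1.42 between Cerberus-Short and Mixer-MO, in Xl.3789.1.S1_at, by -2.05 between Cerberus-Short and Sox17-MO, and in Xl.14404.1.A1_at, by -1.33 between Mixer-MO and Sox17-MO.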

How the results depend on the processing

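Of the 19 named changes, 0 reversed under any alternative that tested them. The 10 at stage 18 kept their calls wherever they were tested. The low filter left out Xl.16116.1.A1_at and Xl.10684.1.A1_at, so their rises were not tested there. All 19 were smaller with a pseudocount of 16. These were named as the largest calls without overlap between groups, a choice that favours such stability. Of all 57 stage 18 calls, 49 were kept with the replicate block, 50 with the fixed letter block and 54 with the random one. Quantile normalization kept 54, the pseudocount 47, and the low filter, which leaves out dim probe sets, 44. The rule found 277 members with a vegetal minimum of 1.5, 98 with 2, 81 with an egg window of 0.5, 103 with the pseudocount (89 shared), and 151 to 282 when 1 array was left out, where 282 came without vegetal replicate 1 (139 shared). At stage 18, 57 calls became 31 with a minimum of 2, 26 with the window of 0.5, 95 for members chosen without vegetal replicate 1, and 55 to 62 when 1 array was left out. The small counts moved most. The minimum of 2, the window of 0.5 and members chosen without a vegetal array changed only the list of members. The fit was the same there, so a lost call had left the list, and its test was unchanged. The low filter left some members untested. For the other settings the cause was not tested. With the fixed letter block, Mixer-MO and the equatorial group each rested on 1 array. Calls lost there do not show whether they depend on the letter. The 3 equatorial calls became 1 with the replicate block or the fixed letter block, and 1 to 3 with 1 array left out. Cerberus-Short, with 0 calls, had 1 with the fixed letter block, 4 with the random one (correlation 0.409) and 0 to 1 with 1 array left out. Mixer-MO, with 0 calls, had 1 with the replicate block, 1 with the random letter block and 0 to 1 with 1 array left out. The single Sox17-MO call became 0 with the replicate block, the fixed letter block, only the compared groups, a variance trend, the minimum of 2, the window of 0.5 or the J arrays left out. It became 2 with the random letter block or for members chosen without either vegetal array, and 0 to 1 with 1 array left out.

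Between injections, the 2 calls of Cerberus-Short against Mixer-MO were both lost with the replicate block, which called 1 other member, Xl.16410.1.A1_at (-1.35). They became 1, kept from the 2, with a low filter, the minimum of 2 or members chosen without vegetal replicate 1. They became 0 with either letter block, quantile normalization, only the compared groups, the window of 0.5 or the J arrays left out, and 0 to 3 with 1 array left out. The single call of Cerberus-Short against Sox17-MO became 2 with the replicate block, the random letter block or members chosen without either vegetal array, 0 with only the compared groups or the window of 0.5, and 0 to 1 with 1 array left out. The 2 calls of Mixer-MO against Sox17-MO became 1, kept from the 2, with the random letter block, quantile normalization or the variance trend. Members chosen without vegetal replicate 1 had 1 call, neither of the 2, and the replicate block kept 1 of the 2 and added Xl.18122.1.A1_at (1.86). They became 0 with the fixed letter block, the low filter, only the compared groups, the minimum of 2, the window of 0.5 or the J arrays left out, and 0 to 3 with 1 array left out. The low filter left out both members called in Mixer-MO against Sox17-MO and 1 of the 2 called in Cerberus-Short against Mixer-MO. These were thus not tested there. The minimum, the window and the choice of members again changed only the list, with the same fit. With 2 to 9 arrays per group and no signal over background, folds against dim signals and single calls near the threshold are uncertain.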
